A study of Mus musculus with 12 samples.

Results

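The question addressed here was whether miRNAs responded to 24 h of hypoxia in the same way in the nucleus as in the cytoplasm of C166 cells, an endothelial line from mouse yolk sac. Each of the 350 miRNAs in the table was taken, and none was selected here. All of them had at least 10 reads in every library, so a miRNA missing from a fraction or a time could not enter. The comparison used the 8 libraries of 24 h and 0 h among 12 in all: nuclear fractions after 24 h in 1% oxygen (n = 2) and in normoxia, called 0 h (n = 2), and cytoplasmic fractions after 24 h in 1% oxygen (n = 2) and in normoxia (n = 2). The 4 libraries of 2 h (nuclear, n = 2, and cytoplasmic, n = 2) served only for the estimate of the spread and as a further time point. Small RNA sequencing (sRNA-seq) gave a normalized count per miRNA and library, that is, the number of reads divided by 1 size factor per library. The cells are a single line without other cell types. The study describes the replicates as biological, but the sources used here do not say whether they were separate cultures, so the p-values measure the spread between these samples. The nuclear libraries of 24 h and 0 h held 3379276 to 4375616 reads in these miRNAs, against 4708753 to 7787926 in the cytoplasmic libraries. Equal amounts of RNA went into each library, so a level is relative to the other miRNAs of the same fraction, and a change in amount per cell cannot be told apart from a change in its share.

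A miRNA is cut from a hairpin precursor in the nucleus by Drosha and again in the cytoplasm by Dicer, which leaves a duplex of a 5p and a 3p arm. In general 1 arm is kept by an Argonaute protein and the other is degraded. The seed, bases 2 to 8 of the mature miRNA, pairs with target mRNAs in the cytoplasm, and mature miRNAs loaded on Argonaute are also found in nuclei. For every miRNA, the nuclear response was the log2 difference between 24 h and 0 h in the nuclear libraries, and the cytoplasmic response the same difference in the cytoplasmic libraries. The interaction was the nuclear response minus the cytoplasmic response, so a negative value marks a miRNA whose level fell more, or increased less, in the nucleus than in the cytoplasm. It equals the change in the log2 nucleus to cytoplasm ratio between 0 h and 24 h.

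Several of the miRNAs with the largest interactions share a seed or differ by few bases, and their mature sequences are shown for that reason, 5′ to 3′, with the seed in capitals. They are credited to RefSeq on GRCm38.p6, where 301 of the 350 names had an entry. The let-7 family shares 1 seed on 9 of its measured 5p arms (miR-98-5p included) and another on 5 of its 3p arms. The 5p arms include 4 with a strongly negative interaction and let-7i-5p, whose interaction did not pass the test:
let-7a-5p: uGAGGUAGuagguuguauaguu
let-7c-5p: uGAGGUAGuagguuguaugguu
let-7d-5p: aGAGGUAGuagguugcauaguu
let-7f-5p: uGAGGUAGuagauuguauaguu
let-7i-5p: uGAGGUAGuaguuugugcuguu
These 3p arms of the family had positive interactions:
let-7a-1-3p: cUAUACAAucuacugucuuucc
let-7c-2-3p: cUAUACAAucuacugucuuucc
let-7f-1-3p: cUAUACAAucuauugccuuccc
Others with strongly negative interactions were these:
miR-31-5p: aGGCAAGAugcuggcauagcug
miR-494-3p: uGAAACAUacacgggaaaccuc
miR-382-3p: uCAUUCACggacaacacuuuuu
miR-103-3p: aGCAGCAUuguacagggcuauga
miR-107-3p: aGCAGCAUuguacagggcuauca
miR-191-5p: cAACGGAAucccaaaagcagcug
Others with positive interactions were these:
miR-16-1-3p: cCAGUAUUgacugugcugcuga
miR-374b-3p: gGUUGUAUuaucauuguccgag
miR-425-5p: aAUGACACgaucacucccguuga
miR-126a-3p: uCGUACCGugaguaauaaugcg
miR-21a-5p: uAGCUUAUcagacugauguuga
let-7a-1-3p and let-7c-2-3p have the same mature sequence, so their reads cannot be told apart and they count as 1 measurement. miR-103-3p and miR-107-3p differ at 1 base, and the 9 let-7 and miR-98 5p arms with an entry differ from each other at 1 to 6 bases, so reads could be split between them by the alignment.

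Of the 350 miRNAs, 162 (46.3%) had an interaction with a Benjamini-Hochberg adjusted p under 0.05 in limma. The 4 nuclear differences between times did not overlap the 4 cytoplasmic ones in 244 (69.7%). In 88 of the called miRNAs (25.1%) the response was more positive in the nucleus, and in 74 (21.1%) it was more negative. The interactions of the 88 ran between 0.62 and 2.32 on the log2 scale (median 1.15), and those of the 74 between -3.18 and -0.59 (median -1.17). At least 2-fold differences were found in 60 and 44 of them. The call count fell to 97 without nuclear 0 h replicate 2, to 99 without cytoplasmic 24 h replicate 1 and to 106 without nuclear 24 h replicate 2. Whichever library was left out, 45 of the 88 and 37 of the 74 were called. Just inside the threshold lay miR-677-5p (interaction 1.25) and miR-134-5p (interaction -0.65), and just outside it miR-27a-3p (interaction 0.57) and miR-130a-3p (interaction 0.69).

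The level that counts as no difference is set by the scaling between fractions. With the deposited size factors, which assume that most miRNAs do not differ, the median interaction over all 350 miRNAs was 0.15, and 88 were more positive against 74 more negative. When library totals were made equal, the median was -0.27 and the split 32 against 105. With totals equal apart from miR-21a-5p, the most abundant miRNA, the median was 0.46 and the split 125 against 38. With miR-186-5p, which the study used as its stable miRNA, as the reference, the median was -0.32 and the split 27 against 103. All 162 called miRNAs kept the sign of their interaction under each of 5 other scalings. The call itself was kept under all of them by 61 (17.4% of 350), 23 more positive and 38 more negative. Of these 61, 23 and 33 were also called without each library in turn.

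The interaction came from either fraction. The nuclear response passed the test for 171 miRNAs (48.9%), 82 higher (23.4%) and 89 lower (25.4%) at 24 h. The cytoplasmic response did so for 128 (36.6%), 50 higher (14.3%) and 78 lower (22.3%), and for 74 and 83 without cytoplasmic 24 h replicate 1 and 2. Among the 88 miRNAs with a more positive nuclear response, 35 had only a nuclear response that passed the test, 31 only a cytoplasmic one, 13 had both in opposite directions, 4 both in the same direction and 5 neither. Among the 74 with a more negative nuclear response, the counts were 38, 14, 13, 1 and 8. The 26 miRNAs with called responses in opposite directions were 7.43% of the table. With library totals made equal, with totals equal apart from miR-21a-5p, and with miR-186-5p as the reference, 33, 34 and 26 miRNAs had opposite responses. As deposited, 13 of the 26 were higher in the nucleus and lower in the cytoplasm and 13 the reverse, and under these 3 scalings the counts were 4 and 29, 20 and 14, and 1 and 25. Opposite responses were found under all 4 scalings for 10 miRNAs: let-7a-5p, let-7c-5p, let-7d-5p, let-7f-5p, let-7g-5p, miR-185-5p, miR-320-3p, miR-361-5p, miR-382-3p and miR-494-3p. All 10 had a lower nuclear and a higher cytoplasmic level at 24 h. These 10 were picked out after their values had been seen. The plot of both responses shows the called miRNAs on either side of the line of equal response.

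**Figure D1:**
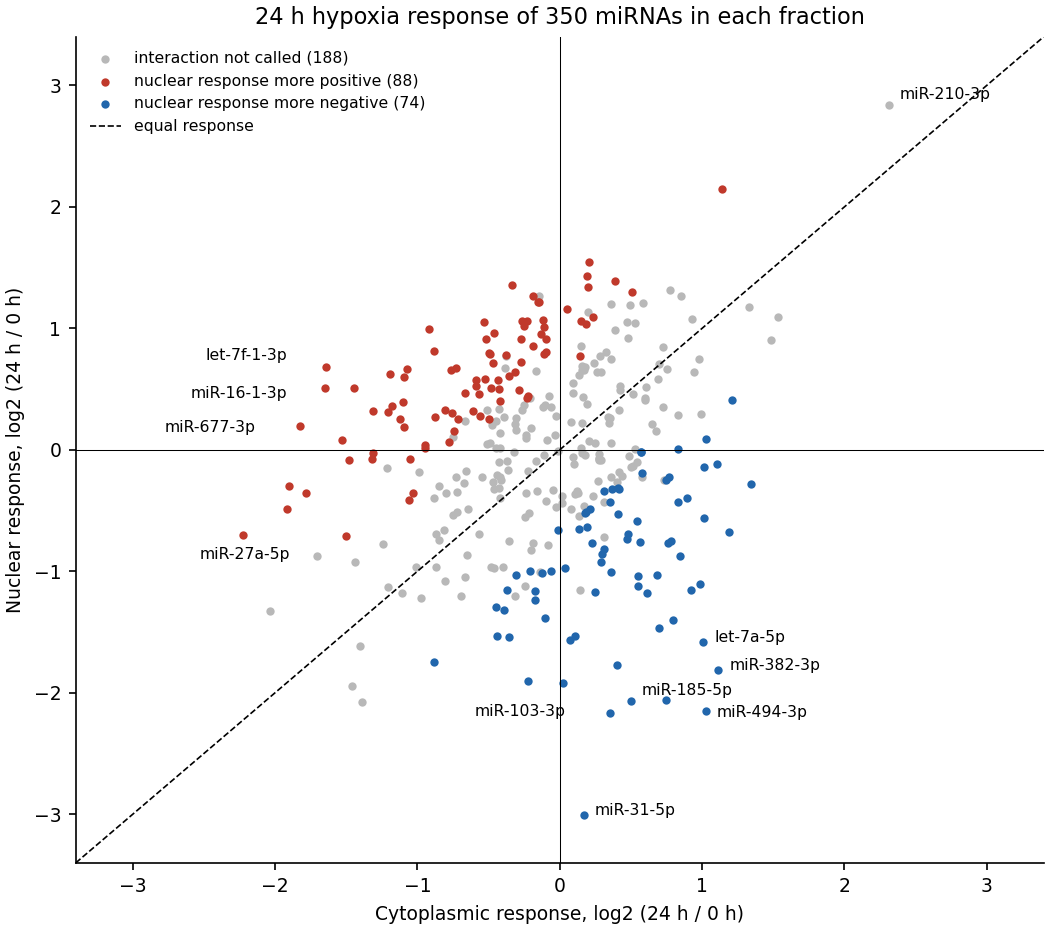
Nuclear response (vertical, log2 of 24 h over 0 h) against cytoplasmic response (horizontal, same scale) for 350 miRNAs, 1 point each, with the 88 red points more positive and the 74 blue points more negative in the nucleus. miR-31-5p lies lowest, with a nuclear response of -3.01 and a cytoplasmic response of 0.17, and miR-210-3p lies near the dashed line of equal response at the upper right.

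miR-31-5p, which in human cells is known to repress the HIF inhibitor FIH, had the interaction farthest from 0. Its normalized counts were 6012 and 5307 in the nuclear libraries at 24 h, against 46175 and 44767 at 0 h. Cytoplasmic libraries held 5505 and 6969.9 at 24 h, against 5453 and 5575 at 0 h. The nuclear groups lay far apart and the cytoplasmic groups close together. The interaction was -3.18 (SE 0.25, adjusted p = 1.1e-07 in limma, range over scalings -3.65 to -2.85), a 9.04-fold difference in response. Its gene lies in an exon of a lincRNA, with the mature sequence at chr4:88910614-88910635 on the minus strand (GRCm38.p6). At 24 h the log2 nucleus to cytoplasm ratio of miR-31-5p was -0.13, against 3.04 at 0 h. The other arm, miR-31-3p, moved the other way. It had 182 and 162 normalized counts in the nuclear libraries at 24 h, against 106 and 63.2 at 0 h. Its cytoplasmic counts were 224 and 208 at 24 h, against 244 and 265 at 0 h, and its interaction was 1.29 (SE 0.34).

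miR-103-3p and miR-107-3p come from introns of the pantothenate kinase genes Pank3 and Pank2 (miR-103-3p) and Pank1 (miR-107-3p), and in human cells they are known to target Dicer. miR-103-3p had 3329 and 3188 normalized counts in the nuclear libraries at 24 h, against 11759 and 18298 at 0 h. Its cytoplasmic libraries held 2483 and 2653 at 24 h, against 1977 and 2037 at 0 h. The interaction of miR-103-3p was -2.53 (SE 0.26), and that of the less abundant miR-107-3p was -1.21 (SE 0.31, adjusted p = 0.0053 in limma). miR-107-3p lost its call with totals equal apart from miR-21a-5p, where its interaction was -0.89. miR-185-5p had 1076 and 1169 normalized counts in the nuclear libraries at 24 h, against 4869 and 4559.8 at 0 h. The cytoplasm held 1210.2 and 1336 at 24 h, against 909 and 891 at 0 h, which gave an interaction of -2.57 (SE 0.23). The log2 ratios of nucleus to cytoplasm of miR-103-3p, miR-107-3p and miR-185-5p were 0.34, 0.18 and -0.18 at 24 h, against 2.87, 1.39 and 2.39 at 0 h.

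A pair of miRNAs of the Dlk1-Dio3 locus, an imprinted region on chromosome 12 whose miRNAs are expressed from the maternal allele, had interactions almost as large. miR-494-3p (chr12:109715367-109715388) had 151 and 85.6 normalized counts in the nuclear libraries at 24 h, against 441 and 587 at 0 h. Cytoplasmic counts of miR-494-3p were 236 and 199.98 at 24 h, against 78 and 144 at 0 h. The groups did not overlap in either fraction, and they moved in opposite directions. The interaction of miR-494-3p was -3.18 (SE 0.41, adjusted p = 1.6e-05 in limma). miR-382-3p (chr12:109733819-109733840, in an intron of Mirg) had 105 and 117 normalized counts in the nuclear libraries at 24 h, against 310.1 and 493 at 0 h. Its cytoplasmic libraries held 292 and 219.6 at 24 h, against 83.1 and 163 at 0 h. The interaction of miR-382-3p was -2.92 (SE 0.40), and that of miR-382-5p from the same hairpin was -1.79 (SE 0.34). miR-501-5p, from an intron of the chloride channel gene Clcn5, had 15.7 and 15.6 normalized counts in the nuclear libraries at 24 h, against 66.2 and 70.6 at 0 h. Its cytoplasmic counts were 21.9 and 22.6 at 24 h, against 13.8 and 12 at 0 h, and its interaction was -2.81 (SE 0.50). miR-3057-5p, also of low counts, had an interaction of -2.17 (SE 0.43). At such low counts the log2(count + 1) scale understates the change.

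The let-7 family, which promotes differentiation and represses Lin28, Ras and Hmga2 transcripts, shifted as a group. Of its 10 measured 5p arms, 8 had a more negative nuclear response (21.1% of all 350 miRNAs did) and none a more positive one, with a median interaction of -1.79, beside 0.15 over all 350 miRNAs. The median was -2.27 to -1.47 under the other scalings and -1.97 to -1.63 without each library in turn, with 8 to 10 and 8 to 9 arms called. let-7a-5p had 18466 and 22149 normalized counts in the nuclear libraries at 24 h, against 54338 and 67386 at 0 h. Its cytoplasmic libraries held 17285 and 15907 at 24 h, against 7459.6 and 9156 at 0 h. Both fractions moved, toward each other, and the interaction of let-7a-5p was -2.59 (SE 0.24, adjusted p = 5.97e-07 in limma). let-7f-5p (-2.20), let-7d-5p (-2.09) and let-7c-5p (-2.08) followed in the size of the interaction, all with SEs of 0.21 to 0.29.

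The nuclear and cytoplasmic parts differed between let-7 members. Among the 10 arms, 9 had a higher cytoplasmic level at 24 h that passed the test, and 7 a lower nuclear level, beside 14.3% and 25.4% of all 350 miRNAs. let-7b-5p had an interaction of -1.63 (SE 0.25) that lay mostly in the cytoplasm. Its nuclear normalized counts were 34369 and 29839 at 24 h, against 41705 and 36255 at 0 h, and its cytoplasmic ones 20260.3 and 19237 at 24 h, against 6512 and 9264 at 0 h. let-7i-5p, the most abundant member, did not pass the test (interaction -0.64, SE 0.26, adjusted p = 0.0532 in limma), although it was called under some other settings. Over the 10 arms together, the share of the library was 10.4% and 10.8% in the nuclear libraries at 24 h, against 15.9% and 18.5% at 0 h. Cytoplasmic shares were 10.6% and 10.6% at 24 h, against 4.35% and 5.41% at 0 h. This share of all reads does not depend on the size factors, and at 24 h it was nearly the same in both fractions. It does depend on miR-21a-5p, the most abundant miRNA. Between 0 h and 24 h, miR-21a-5p rose from 45.1% and 37.4% to 57.0% and 57.2% of nuclear reads. Of cytoplasmic reads it fell from 60.3% and 57.7% to 51.0% and 48.8%. The let-7 share of the remaining reads was not tested. With totals equal apart from miR-21a-5p, the median interaction of the 10 arms was -1.47, with 8 called. The let-7 share at 2 h was 15.7% and 15.0% in the nucleus, against 5.76% and 5.37% in the cytoplasm.

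The let-7 3p arms went the opposite way. Of 10 measured, 8 had a more positive nuclear response (25.1% of all 350 miRNAs did) and none a more negative one (median interaction 1.18, 0.71 to 1.49 under the other scalings, with 4 to 8 called). The 8 include let-7a-1-3p and let-7c-2-3p, which are 1 sequence. let-7f-1-3p, with the most positive interaction of all 350 miRNAs, had 109.7 and 134 normalized counts in the nuclear libraries at 24 h, against 67.5 and 83.8 at 0 h. Its cytoplasmic libraries held 203 and 218 at 24 h, against 757 and 572 at 0 h. The larger part of the interaction lay in the cytoplasm, and its value was 2.32 (SE 0.34, adjusted p = 5.08e-05 in limma). let-7a-1-3p had 1613 and 1732 normalized counts in the cytoplasm at 24 h, against 4044 and 3139 at 0 h, and its interaction was 1.69 (SE 0.26). let-7f-2-3p had an interaction of 1.74 (SE 0.45). Summed over the 10 arms, the 3p arms took 0.0900% and 0.103% of the nuclear libraries at 24 h, against 0.0742% and 0.0867% at 0 h. Cytoplasmic shares of the 3p arms were 0.159% and 0.189% at 24 h, against 0.251% and 0.217% at 0 h.

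Of the 88 miRNAs with a more positive nuclear response, 65 had been higher in the cytoplasm at 0 h, beside 31.1% of all 350 miRNAs. The 0 h libraries also enter the interaction, so this count is partly built in and is given as a description. Several of the largest interactions outside let-7 belonged to miRNAs higher in the cytoplasm at 0 h. miR-16-1-3p, from the Dleu2 intron that also carries miR-15a, had 242 and 251 normalized counts in the nucleus at 24 h, against 209.5 and 143 at 0 h. Cytoplasmic counts of miR-16-1-3p were 1048 and 1151 at 24 h, against 3690.1 and 3207 at 0 h, and the interaction was 2.15 (SE 0.27). miR-374b-3p, from an intron of the X-inactivation regulator Ftx, had 41.4 and 37.4 normalized counts in the nuclear libraries at 24 h, against 19.3 and 19.1 at 0 h. Cytoplasmic counts of miR-374b-3p were 155 and 163 at 24 h, against 357 and 254 at 0 h, and the interaction was 1.92 (SE 0.32). miR-877-3p, a mirtron arm from the Abcf1 gene, had 81.7 and 87.2 normalized counts in the nucleus at 24 h, against 88.2 and 72.1 at 0 h. Cytoplasmic counts of miR-877-3p were 891 and 830.1 at 24 h, against 3061 and 2027 at 0 h. The nuclear groups of miR-877-3p overlapped, only its cytoplasmic response passed the test, and its interaction was 1.61 (SE 0.31). miR-677-3p, which was already nuclear at 0 h, had 275 and 218 normalized counts in the nuclear libraries at 24 h, against 262 and 175 at 0 h, and 13.8 and 19.6 in the cytoplasm at 24 h, against 56.6 and 65.4 at 0 h. Its nuclear groups also overlapped and only its cytoplasmic response passed the test. The interaction of miR-677-3p was 2.02 (SE 0.40), and it overlaps an annotated snoRNA gene in an intron of Atp5b. miR-132-5p likewise had only a cytoplasmic response that passed the test, with an interaction of 1.63 (SE 0.40).

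Some of the positive interactions were nuclear. miR-467b-5p, of the large cluster in an intron of Sfmbt2, had 264 and 226 normalized counts in the nuclear libraries at 24 h, against 101 and 89.7 at 0 h. Its cytoplasmic groups were closer, with 164 and 168 at 24 h, against 244 and 180.2 at 0 h, and the interaction was 1.69 (SE 0.29). Of 17 measured miRNAs of that cluster, which is highly expressed in the mouse placenta, 7 had a more positive and 1 a more negative nuclear response, beside 25.1% and 21.1% of all 350 miRNAs (median 0.84, 0.38 to 1.15 under the other scalings, with 2 to 9 more positive). Of them, 2 were more positive without nuclear 0 h replicate 2, and 4 and 3 without cytoplasmic 24 h replicate 1 and 2. Members of this cluster are near-identical repeats whose reads the alignment could split. The values by library are plotted for 9 of the miRNAs.

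**Figure D2:**
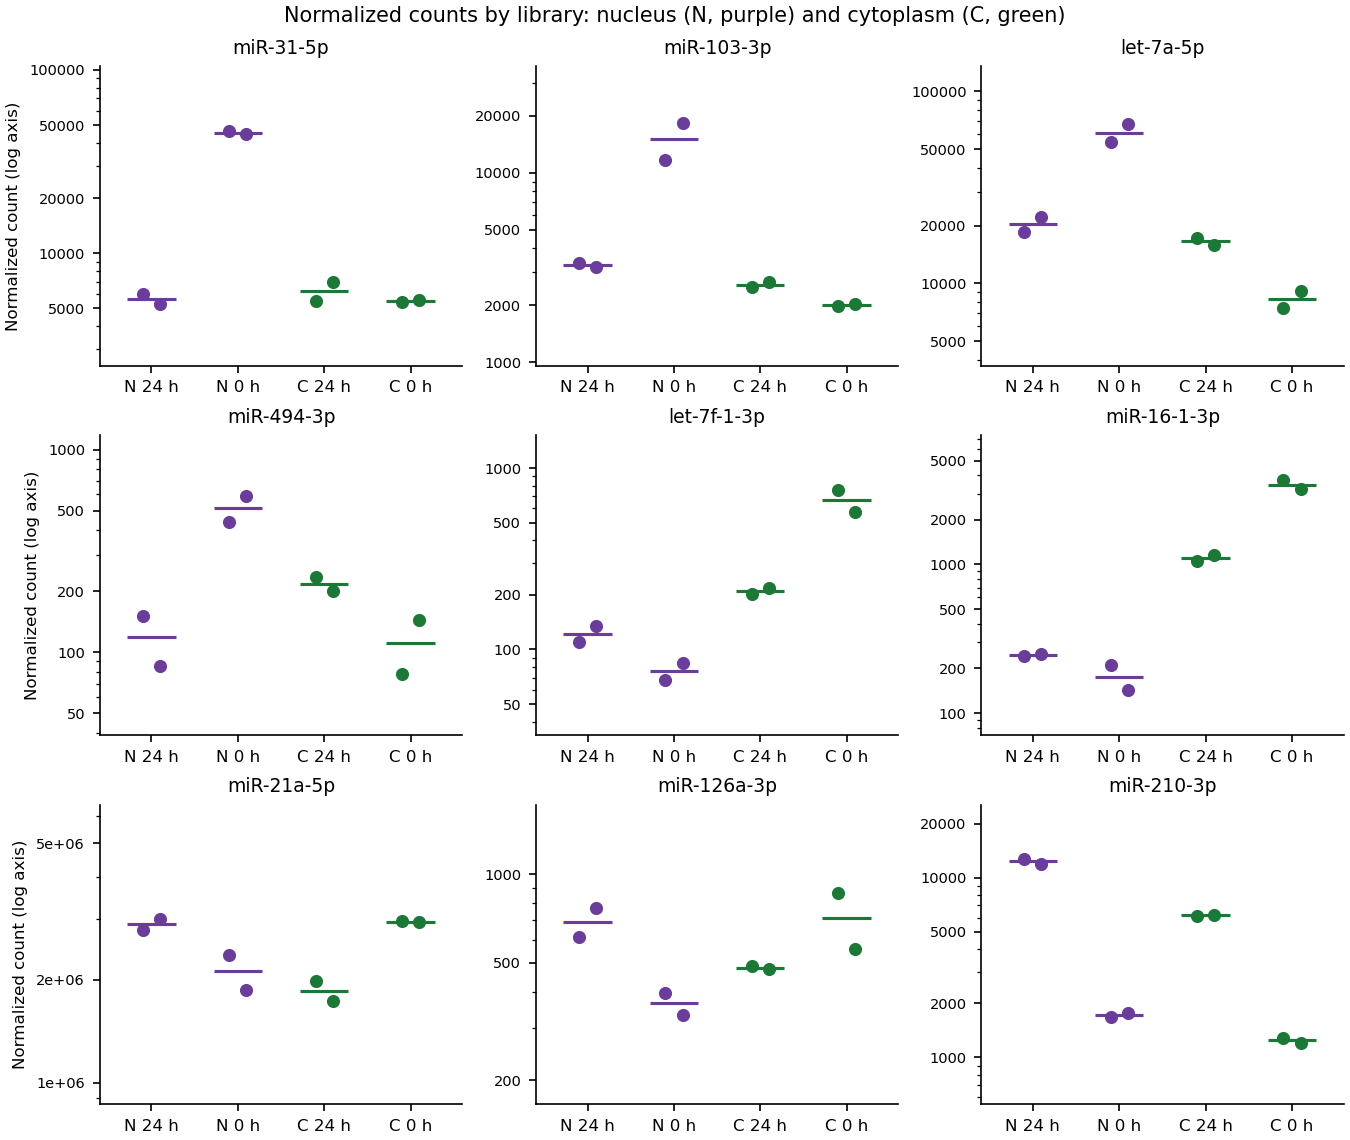
Normalized counts (log axis, different range in each panel) of 9 miRNAs in the nuclear (N, purple) and cytoplasmic (C, green) libraries at 24 h and 0 h; points are the 2 libraries of a group and bars their mean. miR-31-5p and miR-103-3p differ more between times in the nucleus than in the cytoplasm. let-7a-5p and miR-494-3p move in opposite directions, and let-7f-1-3p and miR-16-1-3p differ more in the cytoplasm.

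The spread of the nucleus to cytoplasm ratio over the 350 miRNAs was narrower at 24 h. Its SD on the log2 scale was 1.47 at 0 h, 1.32 at 2 h and 1.09 at 24 h. In replicate 1 alone the SDs were 1.52, 1.33 and 1.13, and in replicate 2 alone 1.47, 1.36 and 1.08. Apart from the pseudocount, the SD of log ratios within a time does not depend on the size factors. The fractions differed by the test for 219 miRNAs at 0 h (62.6%), 221 at 2 h (63.1%) and 149 at 24 h (42.6%). The count at 24 h was 76 without cytoplasmic 24 h replicate 1 and 97 without nuclear 24 h replicate 2. At least 2-fold differences between the fractions were found in 133 miRNAs at 0 h, 127 at 2 h and 58 at 24 h. Of the 110 miRNAs higher in the nucleus at 0 h (31.4%), 40 were still so at 24 h, 3 were cytoplasmic and 67 did not pass the test. Of the 109 higher in the cytoplasm at 0 h (31.1%), 55 were still so at 24 h, 5 were nuclear and 49 did not pass the test. These ratios at 0 h come from libraries that also enter the interaction, so a relation between them is partly built in and is given as a description.

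The 2 h libraries do not enter the value of the interaction. Grouped by the ratio at 2 h, the 106 nuclear miRNAs (30.3%) had a median interaction of -0.62, the 129 with no called difference 0.37 and the 115 cytoplasmic miRNAs (32.9%) 0.51. Of the 74 miRNAs with a more negative nuclear response, 45 were nuclear at 2 h, 9 cytoplasmic and 20 neither. Of the 88 with a more positive one, 13 were nuclear at 2 h, 44 cytoplasmic and 31 neither. The ratio at 2 h was closer to that at 0 h than to that at 24 h in 49 of the 74 and 47 of the 88. For miR-31-5p the log2 ratio was 3.04 at 0 h, 3.07 at 2 h and -0.13 at 24 h, so that it moved after 2 h. For miR-382-3p it was 1.74 at 0 h, -0.20 at 2 h and -1.19 at 24 h, with most of the change by 2 h. let-7a-5p, with 2.87, 2.58 and 0.29, was like miR-31-5p, while let-7f-1-3p, with -3.11, -1.81 and -0.79, changed in both intervals.

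**Figure D3:**
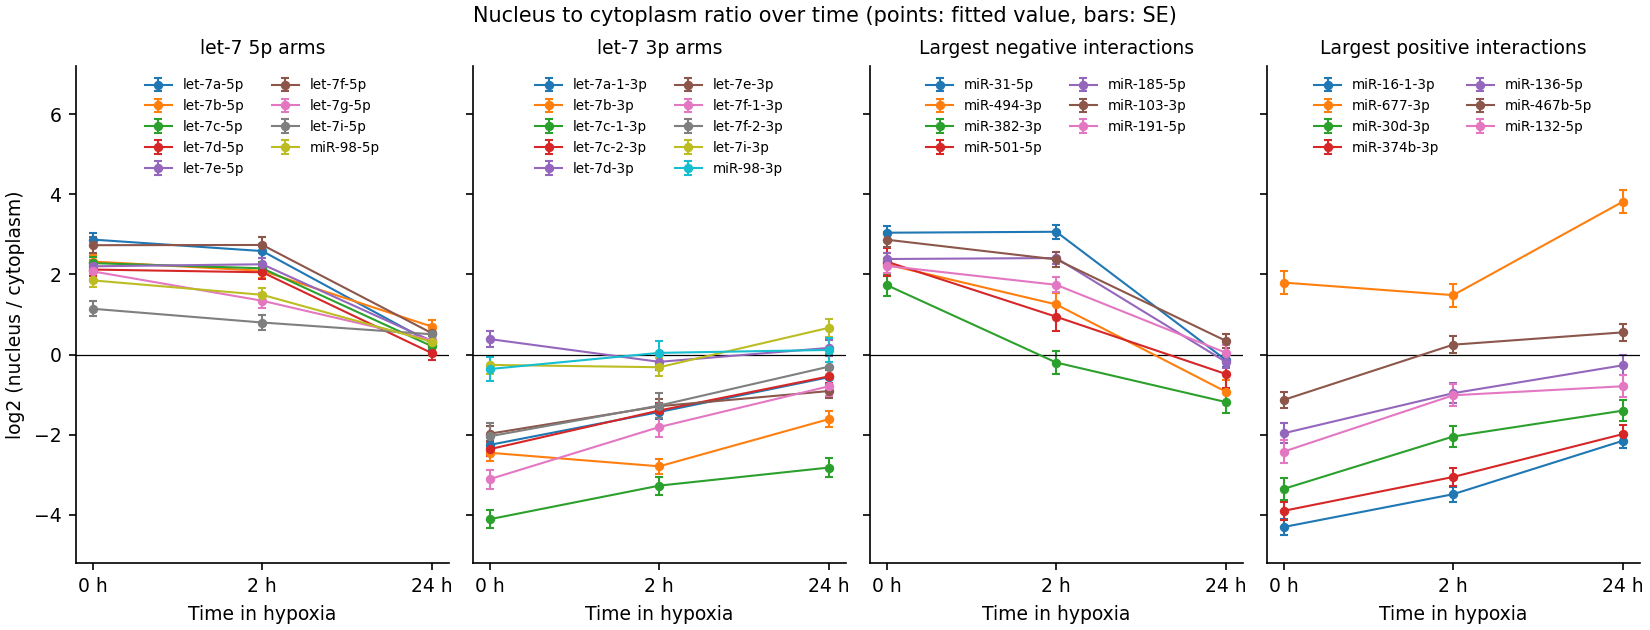
Fitted log2 ratio of nucleus over cytoplasm (points) with its SE (bars) at 0 h, 2 h and 24 h in hypoxia, the time axis not to scale, for let-7 and miR-98 5p arms, their 3p arms, and outside these the 7 miRNAs each with the largest negative and positive interactions. At 2 h, 6 of the 9 5p arms lie above 2, at 24 h all lie between 0.04 and 0.70, and 7 of the 3p arms are below 0 throughout and nearest to it at 24 h.

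**Figure D4:**
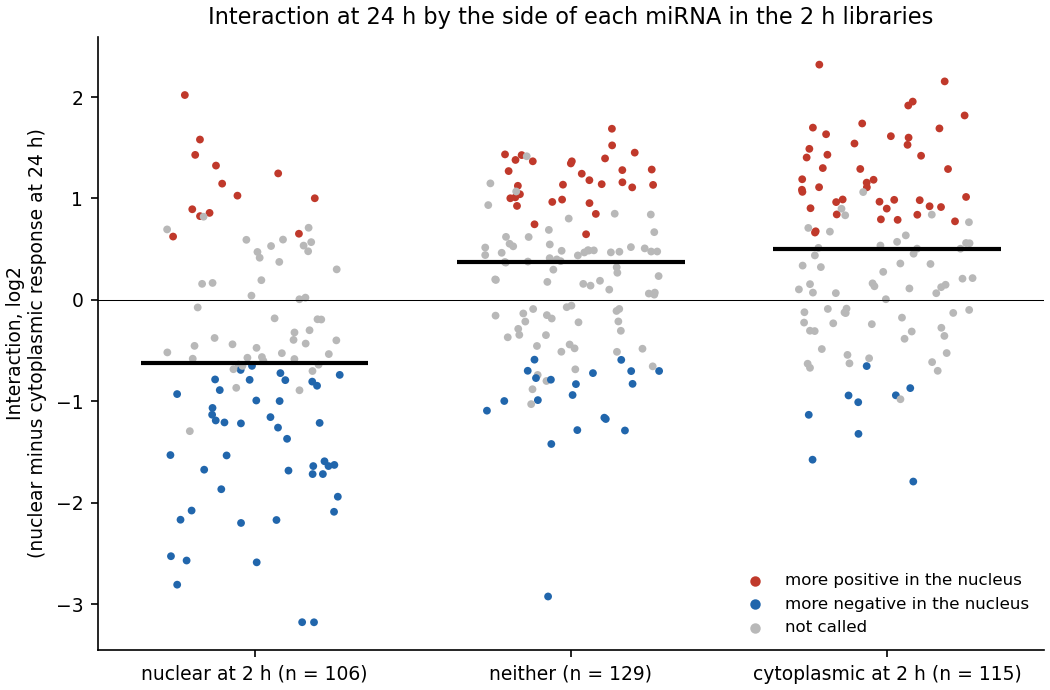
Interaction at 24 h (vertical, log2) of the 350 miRNAs grouped by whether they were higher in the nucleus, in neither fraction or higher in the cytoplasm in the 2 h libraries; points are miRNAs (spread sideways for view), black bars medians. The medians are -0.62, 0.37 and 0.51, with both signs in every group.

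Only 8 miRNAs (2.29%) were called on opposite sides at 24 h and at 0 h. Those that were cytoplasmic at 24 h and nuclear at 0 h were miR-494-3p, miR-382-3p and miR-382-5p, all of the Dlk1-Dio3 locus. Those that were nuclear at 24 h and cytoplasmic at 0 h were miR-21a-5p, miR-425-5p, miR-301a-3p, miR-193b-3p and miR-467b-5p. miR-193b-3p had 109.7 and 101 normalized counts in the nuclear libraries at 24 h, against 38.6 and 32.4 at 0 h. Its cytoplasmic counts were 59.1 and 73.2 at 24 h, against 61.7 and 52.6 at 0 h, and its interaction was 1.35 (SE 0.37). miR-301a-3p, from an intron of Ska2, had 128 and 118 in the nuclear libraries at 24 h, against 62 and 55.9 at 0 h. Its cytoplasmic counts were 72.9 and 77 at 24 h, against 119.6 and 98.9 at 0 h, and its interaction was 1.58 (SE 0.34). For miR-193b-3p the cytoplasmic groups overlapped, and for miR-301a-3p they did not. The direction of this exchange moved with the scaling. With equal library totals 16 changed sides, all to the cytoplasm, and with miR-186-5p as the reference 9 did so, again all to the cytoplasm. With totals equal apart from miR-21a-5p, 4 changed sides, 1 of them to the nucleus. miR-494-3p and miR-382-3p were among them under all 4 scalings.

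miR-21a-5p, a highly expressed miRNA that represses Pdcd4, had 2791389 and 3009179 normalized counts in the nuclear libraries at 24 h, against 2359320.0 and 1869550.3 at 0 h. The cytoplasm held 1985911 and 1732656 at 24 h, against 2957508 and 2942153 at 0 h. The interaction of miR-21a-5p was 1.13 (SE 0.27, adjusted p = 0.0036 in limma), and it was called without each library in turn. Over the scalings it ran between 0.66 and 1.46, and it lost the call with miR-186-5p as the reference. It took 57.0% and 57.2% of the reads of the nuclear libraries at 24 h, against 45.1% and 37.4% at 0 h. Its share of the cytoplasmic libraries was 51.0% and 48.8% at 24 h, against 60.3% and 57.7% at 0 h. Its other arm, miR-21a-3p, had an interaction of 1.11. miR-143-3p, the next most abundant miRNA, had 365840.2 and 381162 normalized counts in the nuclear libraries at 24 h, against 443205 and 458151 at 0 h. Its cytoplasmic counts were 360365 and 328769 at 24 h, against 533007 and 563239.8 at 0 h. Both fractions of miR-143-3p were lower at 24 h, and its interaction of 0.40 (SE 0.26, adjusted p = 0.216 in limma) did not pass the test and had both signs over the scalings.

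The arms of 1 hairpin often had unlike interactions. Both arms were measured for 95 hairpin families, in 100 pairs, and the less abundant arm had the more positive interaction in 66 pairs, or in 56 of the 90 pairs outside let-7 and miR-98. The less abundant arms had a median interaction of 0.48, with 37 more positive and 11 more negative of 100, beside 25.1% and 21.1% of all 350 miRNAs. The more abundant arms had a median of -0.17, with 20 more positive and 30 more negative of 95. In 33 pairs both arms were called, in opposite directions in 21 and in the same direction in 12. In 16 of the 21 the less abundant arm was more positive and the more abundant arm more negative, and 7 of these 16 were let-7 pairs. The pairs are not separate measurements. let-7c-5p, let-7f-5p and miR-125b-5p each enter more than 1 of the 16, and let-7a-1-3p and let-7c-2-3p have the same sequence. miR-199a-3p and miR-199b-3p also have the same sequence, and both count among the 30 more negative arms.

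The other opposite pairs covered several families. miR-30d-3p had an interaction of 1.95 (SE 0.37) and miR-30d-5p, one of the most abundant miRNAs of these cells, -0.72 (SE 0.26). miR-214-5p had 1246 and 1358 normalized counts in the nuclear libraries at 24 h, against 696 and 589.8 at 0 h, while miR-214-3p had 3977 and 3598 at 24 h, against 6630.3 and 6734 at 0 h. Their interactions were 1.27 (SE 0.28) and -1.13 (SE 0.21). For miR-450b the order was reversed, with 1.24 (SE 0.28) for the more abundant 5p arm and -1.57 (SE 0.35) for the 3p arm. miR-382 and miR-501 were among the 3 hairpins with both arms more negative in the nucleus.

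**Figure D5:**
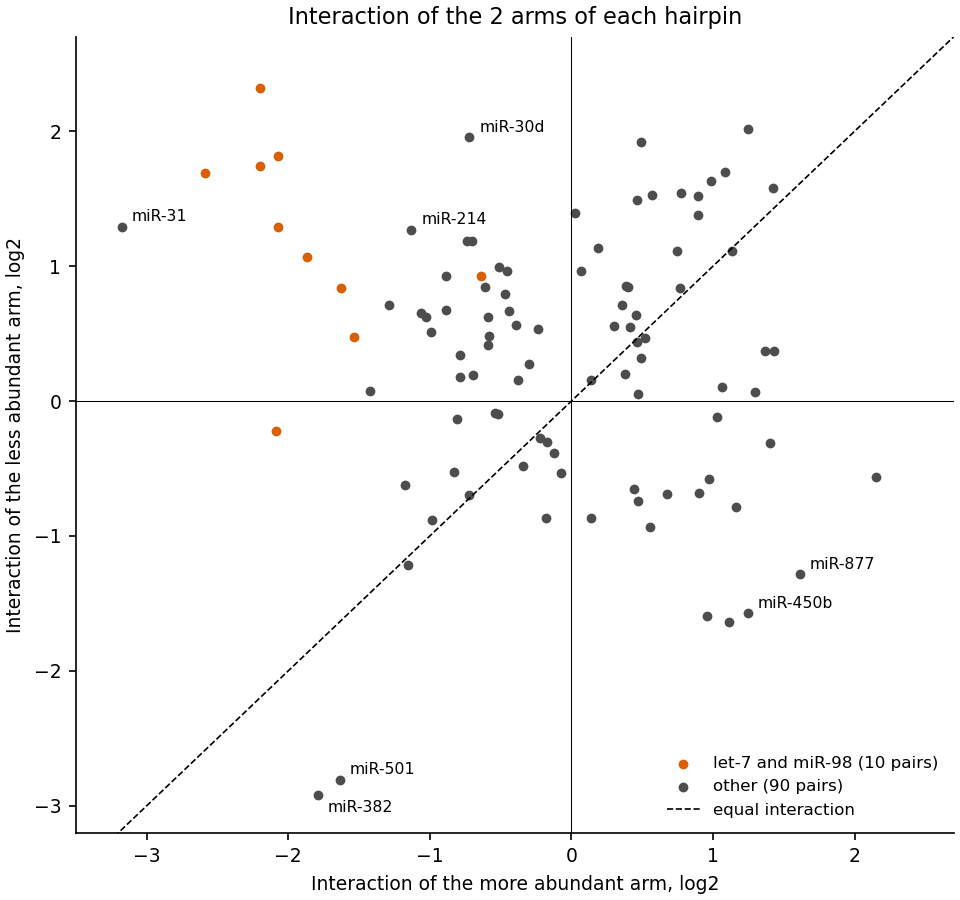
Interaction of the less abundant arm (vertical, log2) against that of the more abundant arm (horizontal, log2) for 100 pairs of arms, with let-7 and miR-98 pairs in orange; the dashed line marks equal interactions. In 66 pairs the point lies above the line, and most let-7 pairs lie at the upper left.

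Hairpins that lie next to each other are usually transcribed together. Among matched miRNAs, 35 clusters held at least 2 measured hairpins within 10000 bases of the next on the same strand. The more abundant of the matched arms were called in both directions in 9 of these clusters, in 1 direction in 18 and not called in 8. For miR-34c and miR-532 the more abundant 5p arm had no match, so the 3p arm was used. Of all 350 miRNAs, 25.1% were more positive and 21.1% more negative, so a cluster with many hairpins more easily holds both directions. The clusters are not separate units. A miRNA with more than 1 locus, such as let-7c-5p, counts in each of its clusters, and the Dlk1-Dio3 locus is split over several. One of the clusters holds only miR-344d-3p, counted at 2 loci. miR-191-5p (chr9:108568325-108568347) and miR-425-5p (chr9:108568789-108568811) are neighbours in the same lincRNA annotation. miR-191-5p had 5749 and 6039 normalized counts in the nuclear libraries at 24 h, against 16224 and 24838 at 0 h, and miR-425-5p had 1265 and 1406 at 24 h, against 729 and 641 at 0 h. The cytoplasm held 5652 and 5755 of miR-191-5p at 24 h, against 4260.4 and 4383 at 0 h, and 774 and 886 of miR-425-5p at 24 h, against 1492 and 876 at 0 h. Their interactions were -2.17 (SE 0.26) and 1.43 (SE 0.34). In the cluster of miR-183-5p, miR-96-5p and miR-182-5p, which share much of their seed sequence and are known from sensory organs, the interactions were -0.99, 1.29 and -1.01. Cluster mates could also move together: let-7a-5p, let-7f-5p and let-7d-5p of the chromosome 13 cluster (chr13:48536078-48538260) had interactions between -2.59 and -2.09.

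Lists of related miRNAs moved less uniformly than let-7. Beside the 25.1% more positive and 21.1% more negative miRNAs in the table, the miR-17-92 and paralogous clusters, which promote proliferation, had 0 more positive and 6 more negative of 15 (median -0.57), and 1 to 10 more negative under the other scalings. miR-92a-3p (-1.21, SE 0.28) and miR-19b-3p (-0.93, SE 0.27) had the largest interactions called there. The count of 6 was 1 without cytoplasmic 24 h replicate 2 or nuclear 24 h replicate 2, 2 without nuclear 0 h replicate 2 and 3 without cytoplasmic 24 h replicate 1. The miR-23/27/24 clusters, known for roles in angiogenesis, had 4 more positive and 1 more negative of 9 (median 0.57). With equal totals the counts were 3 and 2, with totals equal apart from miR-21a-5p 5 and 0, and with miR-186-5p as the reference 1 and 3 (median 0.09), so which direction held more members moved with the scaling. There the less abundant arms led: miR-27a-5p had an interaction of 1.53 (SE 0.31), with 81.7 and 128 normalized counts in the nucleus at 24 h, against 168 and 165 at 0 h, and 2631 and 2798 in the cytoplasm at 24 h, against 14419 and 11207 at 0 h. miR-24-1-5p (1.52, SE 0.39) and miR-24-2-5p (1.38, SE 0.30) were next.

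The X-linked cluster of miR-322 and miR-503, which acts on the cell cycle, had 3 more positive and 4 more negative of 10 (median -0.57) as deposited. The counts were 0 and 5 with equal totals, 3 and 2 with totals equal apart from miR-21a-5p and 1 and 5 with miR-186-5p as the reference, and the 4 fell to 2 without cytoplasmic 24 h replicate 1 or nuclear 0 h replicate 2. miR-542-3p of that cluster had 1835 and 1764 normalized counts in the nuclear libraries at 24 h, against 5628 and 8083 at 0 h. Its cytoplasmic counts were 1882 and 1996 at 24 h, against 2338 and 2194 at 0 h, and its interaction was -1.68 (SE 0.25). miR-322-5p had 0.85 (SE 0.26). The 38 measured miRNAs of the Dlk1-Dio3 locus held 8 more positive and 7 more negative ones (median -0.09), with miR-136-5p at the positive end (1.70, SE 0.35). These counts were 3 and 10 with equal totals (median -0.50), 12 and 4 with totals equal apart from miR-21a-5p (median 0.22) and 3 and 8 with miR-186-5p as the reference (median -0.55). The count of 7 was 4 without cytoplasmic 0 h replicate 1, either cytoplasmic 24 h library, nuclear 0 h replicate 2 or nuclear 24 h replicate 2. The 5 miR-34 family members, which respond to p53, and the 4 miR-181 5p arms had no call in either direction, with medians of 0.56 and 0.09. In the miR-34 family 0 to 4 members were called under other scalings.

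The list of hypoxia-associated miRNAs held 1 more positive and 6 more negative of 18 (median -0.34), beside 25.1% and 21.1% of all 350 miRNAs (median 0.15), and 0 to 5 and 2 to 11 under the other scalings (median -0.82 to -0.02). Those more negative included miR-103-3p and miR-107-3p above, miR-195a-5p (-1.64, SE 0.42) and miR-125b-5p (-0.89, SE 0.23). miR-210-3p, the most widely known HIF target among miRNAs, was higher in both fractions. It had 12744 and 11948 normalized counts in the nuclear libraries at 24 h, against 1684 and 1758 at 0 h, and 6154 and 6195 in the cytoplasm at 24 h, against 1284 and 1206 at 0 h. Its interaction was 0.53 (SE 0.22, adjusted p = 0.0561 in limma) and did not pass the test. It was positive under all scalings, but its size moved with them. The interaction was largest with totals equal apart from miR-21a-5p, and close to no difference with miR-186-5p as the reference.

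Among 14 measured endothelial and vascular miRNAs, 4 were more positive and 2 more negative (median 0.39), beside the same shares of all 350, and 1 to 8 and 0 to 5 under the other scalings (median -0.09 to 0.71). The count of 4 was 2 without cytoplasmic 24 h replicate 2 or nuclear 0 h replicate 2, and that of 2 was 4 without cytoplasmic 0 h replicate 2. miR-126a-3p, an endothelial miRNA from an exon of Egfl7 that supports VEGF signalling, had 612 and 766 normalized counts in the nuclear libraries at 24 h, against 397 and 332 at 0 h. Its cytoplasmic libraries held 487 and 476 at 24 h, against 860.4 and 557 at 0 h, and the interaction was 1.43 (SE 0.32). miR-146a-5p, an inhibitor of NF-kB signalling, went the other way (-1.19, SE 0.35). miR-29a-5p, the less abundant arm of its hairpin, was at 1.39 (SE 0.41), while miR-29a-3p was at 0.02 (SE 0.21). miR-199a-5p had an interaction of 0.62 (SE 0.24) and miR-29b-3p of 0.83 (SE 0.32). These are the 2 of 301 matched miRNAs (0.664%) that hold AGUGUU, searched on the miRNA strand only. Neither kept its call under all scalings. AGUGUU was reported earlier to direct human miR-29b to the nucleus. The study proposes that, in these cells at least, it is not a true nuclear signal. Its reasons were that miR-29a-3p and miR-29c-3p were nuclear-enriched without it, and that other studies did not find it enriched in nuclear libraries. miR-199b-5p, which the study also lists with this motif, had no matched sequence and was not in this search. Its interaction was 0.42 (SE 0.29, adjusted p = 0.238 in limma) and did not pass the test. Of the other miRNAs named in the study, miR-669c-5p had an interaction of 1.01 (SE 0.40, adjusted p = 0.047 in limma) that passed. It did not keep this call under all scalings. The interactions of miR-29c-3p (0.48, SE 0.41), miR-193a-5p (-0.48, SE 0.52), miR-200c-3p (-0.21, SE 0.62) and miR-203-3p (-0.68, SE 0.43) did not pass.

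For the nuclear side, 3 miRNAs that overlap snoRNA genes were taken: miR-3535, miR-1291 and miR-5121. The study reports miR-3535 as the most nuclear miRNA of these same libraries and treats miR-1291 as nuclear. High nuclear ratios were thus known beforehand and do not test the purity of the fraction. The study checked purity by western blot and RT-qPCR, which were not analysed here. The summed normalized count of the 3 miRNAs was 3568 to 4449 in the nuclear libraries at 24 h, against 7241 to 7249 at 0 h. In the cytoplasm it was 123 to 137 at 24 h, against 159.9 to 290.3 at 0 h. Both fractions had lower sums at 24 h. miR-3535 had an interaction of 0.04 (SE 0.39) and miR-1291 one of -1.29 (SE 0.60, adjusted p = 0.087 in limma), while miR-5121 had 1.15 (SE 0.40). Their log2 ratios of nucleus to cytoplasm at 24 h were 5.05, 4.46 and 5.25, and at 0 h 5.01, 5.75 and 4.10. All 3 had a log2 ratio above 4 at both times, but the ratio of miR-1291 was lower at 24 h and that of miR-5121 higher. miR-677-3p, which also overlaps a snoRNA gene, was not among these 3. Its log2 ratio was 3.82 at 24 h, against 1.80 at 0 h. Of 4 miRNAs listed as endothelial markers, 3 were in the table: miR-126a-3p, miR-221-3p and miR-222-3p. Their sum was 24712 to 25452 in the nuclear libraries at 24 h, against 29048 to 32530 at 0 h. In the cytoplasm the sum was 15315 to 16613 at 24 h, against 11232 to 14278 at 0 h. Most of it came from miR-221-3p and miR-222-3p. miR-126a-3p, with 612 and 766 normalized counts in the nuclear libraries at 24 h, moved the other way in both fractions. The sum therefore says little about miR-126a-3p. Of 13 markers of other cell types, 6 were in the table, with sums of 456 to 565 in the nuclear libraries at 24 h, against 797 to 1002 at 0 h, and 454 to 508 in the cytoplasm at 24 h, against 565 to 788 at 0 h, at most 0.0192% of a library. Whether RNA carried over between fractions took part in the interactions was not tested.

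Length and GC content, which the comparison did not use, had the same medians on both sides. The median length was 22 bases and the median GC content 47.8% among the more positive, the more negative and the uncalled miRNAs. The first base was U in 33.3% of the 75 matched miRNAs with a more positive nuclear response and in 48.5% of the 68 with a more negative one, beside 44.3% of the uncalled. The more negative miRNAs were more abundant, with a median of 1545 normalized counts over all libraries, than the more positive ones, with 395.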

How the data were processed

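The authors converted base calls with bcl2fastq, used Trimmomatic for trimming and Bowtie2 2.1.0 for alignment to miRBase release 20 sequences, kept miRNAs with at least 10 reads, and divided the counts per miRNA by 1 DESeq2 size factor per library. These normalized counts are what the authors deposited, and they are treated as signal. The same table also holds the authors' fold changes and p-values per comparison, which were not used. Multiplied by the size factor, 100% of the values lay within 0.01 of a whole number of reads. No miRNA was removed.

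The interaction was fitted with limma 3.58.1 in R 4.3.3 on log2(normalized count + 1), with a variance trend on abundance, over all 12 libraries in 6 groups without a block, and adjusted over 350 miRNAs by Benjamini-Hochberg. The test was checked on simulated data. Summaries used pandas 2.3.3 and numpy 2.4.6 in Python 3.11.15, and plots matplotlib 3.10.9. Whether same-numbered nuclear and cytoplasmic libraries came from 1 culture is not stated in the sources used here. Sequences were matched by name to RefSeq (GRCm38.p6), and host genes are from GENCODE.

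The named miRNAs were drawn from the 12 called with the most positive and the 12 with the most negative interaction whose 4 nuclear and 4 cytoplasmic differences between times do not overlap (244 of 350, or 69.7%, do not), those that changed sides, up to 3 of each list, those the study names, and the 3 most abundant, and not every list member is printed. Arms and cluster mates of these, the 10 miRNAs with opposite responses under every scaling, and the miRNAs at the threshold are exceptions. The miRNAs, lists and alternatives were chosen with earlier results of these data known. The alternatives were another pseudocount (10), a mean of at least 100, 5 other scalings, only 8 libraries, no variance trend, limma-voom on the recovered reads, other thresholds, replicate blocks and leaving out each library. How the sides depend on the scaling was added after seeing the data. The imaging, the RT-qPCR and other cell lines of the study were not analysed here.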

Additional observations from a re-analysis of the deposited data

Results flagged for a closer look

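The 2 fractions differed in their 24 h response, tested as an interaction with limma, for 162 miRNAs, with the nuclear response more positive in 88 and more negative in 74. In 26 of these the responses of both fractions passed the test and pointed in opposite directions. The 13 of them with a lower nuclear and a higher cytoplasmic level had interactions of -3.18 (miR-494-3p), -2.92 (miR-382-3p), -2.59 (let-7a-5p), -2.57 (miR-185-5p), -2.20 (let-7f-5p), -2.09 (let-7d-5p), -2.08 (let-7c-5p), -1.87 (let-7e-5p), -1.72 (let-7g-5p), -1.67 (miR-320-3p), -1.59 (miR-361-5p), -1.53 (miR-98-5p) and -1.13 (miR-433-3p). The let-7 and miR-98 members among them share a seed. The 13 with a higher nuclear and a lower cytoplasmic level had interactions of 2.32 (let-7f-1-3p), 2.15 (miR-16-1-3p), 1.92 (miR-374b-3p), 1.82 (let-7c-2-3p), 1.70 (miR-136-5p), 1.69 (let-7a-1-3p), 1.42 (miR-301a-5p), 1.40 (miR-434-5p), 1.30 (miR-411-5p), 1.16 (miR-455-5p), 1.11 (miR-21a-3p), 1.11 (miR-22-5p) and 0.99 (miR-99a-5p). With equal library totals the counts in these 2 directions were 29 and 4, with totals equal apart from miR-21a-5p 14 and 20, and with miR-186-5p as the reference 25 and 1. No group had the 4 samples that a check for single outlying libraries needs.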

How the results depend on the processing

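The interaction was called for 46.3% of the 350 miRNAs (162), and for 37.1% to 51.7% under the other pseudocount, filter, scalings, variance, test and block settings. It was called for 25.1% (88) at an adjusted p under 0.01 and for 29.7% (104) with a 2-fold minimum added. Leaving out 1 library gave 27.7% to 47.4%, with the lowest counts of 97, 99 and 106 without nuclear 0 h replicate 2, cytoplasmic 24 h replicate 1 and nuclear 24 h replicate 2, with fewer samples in each fit. The 24 h response was called in the cytoplasm for 36.6%, and for 21.1% to 36% without 1 library, the lowest without cytoplasmic 24 h replicate 1 (74) and replicate 2 (83). The nucleus to cytoplasm ratio at 24 h was called for 42.6%, and for 21.7% to 32.9% without 1 library, the lowest without cytoplasmic 24 h replicate 1 (76) and nuclear 24 h replicate 2 (97). The deviations of same-numbered nuclear and cytoplasmic libraries correlated at 0.07, 0.24 and 0.09 at 0 h, 2 h and 24 h, so the numbers were not taken as pairs, although the sources used here leave the pairing unstated. With the replicate block the interaction was called for 48.0% (168, 92 more positive and 76 more negative), and with the time and number as the block for 51.7% (181). Of 1170 values of the 59 named and called miRNAs under the alternatives, 1086 kept the call, 84 lost it and 0 reversed, and 38 of the 59 kept it under every alternative. The scaling moved the split between directions most. More positive and more negative miRNAs numbered 88 and 74 as deposited, 74 and 92 with the median interaction set to 0, and 78 and 79 with factors computed separately in each fraction. They numbered 32 and 105 with equal library totals, 125 and 38 with totals equal apart from miR-21a-5p, and 27 and 103 with miR-186-5p as the reference. For the nuclear response alone the split was 82 and 89 as deposited and 156 and 48 with totals equal apart from miR-21a-5p, and for the cytoplasmic response 50 and 78 as deposited and 126 and 36 with equal library totals. With 2 libraries per group the median SE of an interaction was 0.30, the smallest interaction called was -0.59, and ones as large as -1.29 (miR-1291) did not pass the test.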
